A study of Chlamydomonas reinhardtii with 28 samples.

Results

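The genes annotated as adenylate or guanylate cyclases of *Chlamydomonas reinhardtii*, a unicellular green alga with flagella, were followed in 7 laboratory strains that are all used as wild type. A gene was taken as a member if its symbol was CYG or CYA followed by digits, or if its definition in the deposited table named an adenylate, guanylate, adenylyl or guanylyl cyclase. This held for 79 of the 17611 genes listed. The selection used names only and no expression value. A single member, CYG56 (Cre16.g688901), carries a symbol, and the others are given by their gene identifier. In the definitions, 60 members are adenylate/guanylate cyclases with no other remark, 8 are adenylate or adenylyl cyclases, 5 are solute-binding protein-like adenylate cyclases, 5 name nitric oxide (CYG56 and 4 adenylate/guanylate cyclases), and 1 is lipocalin-like. The combined adenylate/guanylate definition does not say which of the products, cAMP or cGMP, a given enzyme makes.

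RNA was sequenced from 28 cultures, 4 biological replicates of each strain: CC-124 (mt−), CC-125 (mt+), CC-1009 (mt−), CC-1690 (mt+), CC-1691 (mt−), CC-4532 (mt−, the strain of the reference genome) and CC-4533 (mt−, the parent of the CLiP mutant library). All were grown in acetate-containing TAP medium in continuous light and collected in mid-log growth, with no treatment, and none carries a transgene named in the labels. The strains descend from a single zygospore, and their genomes are mosaics of a pair of haplotypes, so a strain name stands for 1 such mosaic. By a number in the library names, CC-125 and CC-4533 (8 libraries) form a library set of their own, and the other 5 strains (20 libraries) form another. What this number stands for is not stated, and library set and strain cannot be told apart for CC-125 and CC-4533.

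Class III nucleotidyl cyclases turn ATP into cAMP or GTP into cGMP, small messengers that phosphodiesterases break down again and that act through protein kinases and ion channels. Green algae hold an unusually large family of such enzymes, whereas land plants have few clear members. In *Chlamydomonas*, cAMP rises when the flagella of gametes of opposite mating type adhere and it carries the mating signal into the cell. Guanylate cyclases that respond to nitric oxide have been placed in the response to nitrogen source, where CYG56 takes part in the repression of nitrate assimilation genes. The cultures measured here were vegetative cells, and most individual members have no assigned role.

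Levels are given as FPKM, an abundance scaled for gene length and library size that the authors calculated with DESeq2, which allows genes of different length to be set side by side. How many reads lie behind a value is not known, because read counts were not used here, and low values therefore carry an unknown counting error. The summed FPKM of a library lay between 480355 and 1319895, between 16121 and 16594 genes per library were above 0, and the smallest value listed for a gene was lower in the CC-125 and CC-4533 libraries than in the others by a median ratio of 0.59 over 205 genes. As a check of the labels, the minus mating type genes MID1 and MTD1 were highest at 11.4 and 2.81 FPKM among the 20 mt− libraries, with lowest values of 3.12 and 0.05 FPKM, and did not exceed 0.08 and 0.07 FPKM among the 8 mt+ libraries. FUS1, a gene of plus gametes, was listed at 0 in mt− and at no more than 0.1 FPKM in mt+. CC-4533 replicate 3 stood apart from the other replicates of its strain, with a mean correlation with them of 0.940 across genes, against 0.971 or more in every other library. In this library 51 of the 72 cyclase genes tested were above the other 3 CC-4533 replicates and 12 below, against 42.8% and 41.2% of all genes tested. The counts of called members were recomputed without it and are given beside the main counts where they differ.

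Most cyclase genes were expressed at a low level. Of the 79 members, 72 exceeded a mean of 1 FPKM in 1 or more strains and were tested, and 37 of these exceeded it in all 7. The highest strain mean was above 10 FPKM in 12 members, above 5 and up to 10 FPKM in 13, above 2 and up to 5 FPKM in 38, and above 1 and up to 2 FPKM in 9. The median of the highest strain mean was 3.70 FPKM over the 72 members and 7.15 FPKM over all 14785 genes tested. Just inside the threshold, Cre02.g100500 reached 1.26 ± 0.143 FPKM (SD, n = 4) in CC-4533, and just outside it, the highest strain mean of Cre16.g678551 was 0.953 FPKM. The 7 members left out were Cre03.g203451, Cre06.g259500, Cre06.g300500, Cre14.g628533, Cre14.g629241, Cre16.g678551 and Cre16.g679850, with means over the strains between 0.0421 and 0.735 FPKM.

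The 5 members with the highest mean over the strains were Cre16.g662200, Cre01.g030500, Cre16.g649050, Cre07.g321000 and Cre11.g479000. The first of them, defined as a putative adenylate cyclase, was also the most even of all members with a lowest mean above 2 FPKM. It was at 18.76, 16.51, 16.03 and 17.95 FPKM in CC-124, at 11.67, 13.34, 12.52 and 12.58 FPKM in CC-125, at 19.6, 23.27, 18.71 and 15.96 FPKM in CC-1690 and at 15.39, 15.54, 9.7 and 17.17 FPKM in CC-4533. The ratio of highest to lowest strain mean was 1.55. Cre01.g030500 was at 19.73, 20.9, 19.42 and 20.64 FPKM in CC-1009, the highest strain, and at 8.13, 11.35, 10.67 and 8.74 FPKM for CC-124, the lowest. These libraries did not overlap, but the ratio of the means, 2.07, was not called beyond 2-fold in any pair of strains. Cre07.g321000 ranged from 4.75 ± 0.539 FPKM in CC-1690 to 11.8 ± 0.651 FPKM in CC-1691 (SD, n = 4), and Cre11.g479000 from 5.25 ± 0.928 FPKM in CC-124 to 11.7 ± 0.135 FPKM in CC-1009, again with 0 of 21 pairs called. Next in evenness were Cre14.g612950, with a ratio of 1.58, and Cre14.g616550, with a ratio of 1.79.

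**Figure D1:**
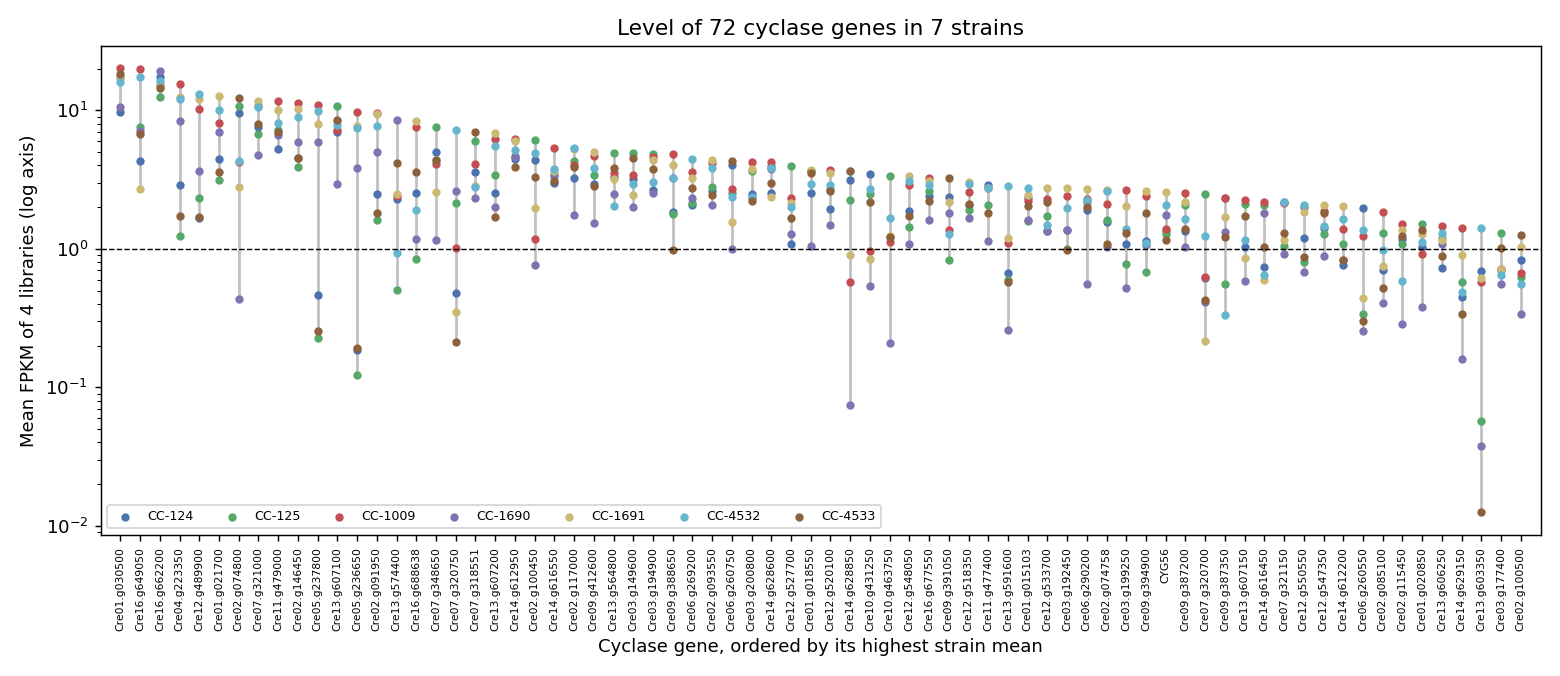
Mean FPKM of 4 libraries (log axis) for each strain (colored points) in the 72 cyclase genes tested, ordered by the highest strain mean, with a gray line from the lowest to the highest strain and a dashed line at 1 FPKM. Cre16.g662200 spans 1.55-fold, whereas Cre05.g236650 spans 79.0-fold at a highest mean of 9.67 FPKM.

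Summed over the 79 members, the strains fell into a higher and a lower group. The sum was 321 ± 7.31 FPKM in CC-1009, 294 ± 7.07 FPKM in CC-4532 and 287 ± 9.24 FPKM in CC-1691 (SD, n = 4 libraries). It was 222 ± 21.3 FPKM in CC-125, 214 ± 34.7 FPKM in CC-4533, 179 ± 8.79 FPKM in CC-1690 and 197 ± 26.7 FPKM in CC-124. The lowest library of the first 3 strains, at 274 FPKM, lay above the highest library of the other 4, at 265 FPKM, which was CC-4533 replicate 3. In the first group, CC-1009 (312 to 329 FPKM) lay above CC-4532 (285 to 302 FPKM), which overlapped CC-1691 (274 to 295 FPKM). In the second group, CC-124 overlapped CC-125, CC-1690 and CC-4533. The sums were not set against the summed FPKM of each library, which varied as given above. The number of members with a mean above 1 FPKM ran from 49 in CC-1690 and 57 in CC-125 to 64 in CC-4532 and 65 in CC-1009. In bulk RNA, fewer cells that use a gene and less RNA per cell cannot be told apart.

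All 72 members differed between strains by limma's F test (adjusted p below 0.01), but 91% of all genes tested did so too, so this count says little about the cyclases. Differences beyond 2-fold were called by the treat test of limma on values of log2(FPKM + 0.1), a scale that understates changes of genes near 0. With it, 42 of the 72 members (58.3%) were called in at least one of the 21 pairs of strains, where 30.2% of all genes were. Called in at least one strain against the mean of the other 6 were 24 members (33.3%), where 15.1% of all genes were. Without CC-4533 replicate 3 these counts were 43 members in at least one pair and 29 in at least one strain. With a pseudocount of 1 fewer members were called, as given in the closing section. The shares of all genes are given for the main fit only. Whether the members exceed them under other settings was not tested. The ratio of highest to lowest strain mean had a median of 3.65 over the members and 2.38 over all genes tested, without matching for level. It was 10 or more in 11 members and below 2 in 8. By definition, 22 of the 55 tested members with the plain adenylate/guanylate cyclase definition were called in a strain, as were 2 of the 5 that name nitric oxide. Among the 6 adenylate or adenylyl cyclases 0 were called, as were 0 of the 5 solute-binding protein-like members, and the lipocalin-like one was not. In pairs of strains, 2 of these 6 and 1 of these 5 were called. Beside shares of 15.1% (in a strain) and 30.2% (in a pair) over all genes, groups this small cannot tell the definitions apart.

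**Figure D2:**
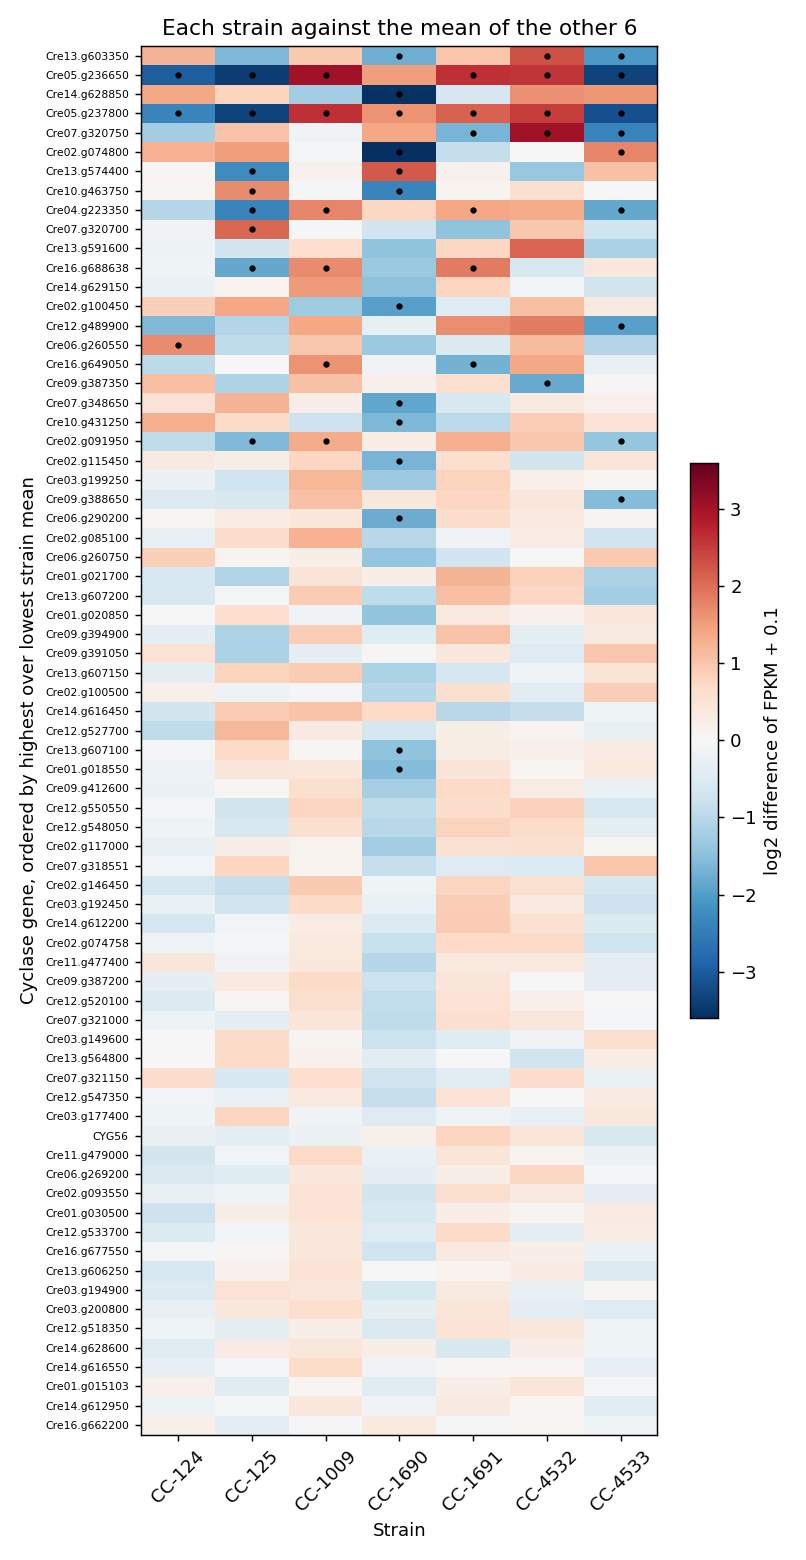
Log2 difference of each strain from the mean of the other 6 for the 72 cyclase genes tested (rows, ordered by the ratio of highest to lowest strain mean), red for higher and blue for lower, with a black dot where limma's treat test called the difference. The CC-1690 column holds 11 dots on blue cells and 2 on red cells, and the CC-1009 column holds 6, all on red cells.

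CC-1690 was most often the strain with the lowest cyclase level. It had the lowest strain mean in 37 of the 72 members (51.4%), against 23.3% of all genes tested, and the highest in 2 (2.78%, against 22%). The members had a median log2 difference of -0.70 from the other 6 strains, where the median of all genes was 0.00, and 57 of the 72 lay below 0. Past the treat threshold, 11 members were lower (15.3%, against 3.27% of all genes) and 2 were higher (2.78%, against 2.41%). With quantile normalization the split was 7 lower and 3 higher, the median was -0.58, and CC-1690 was lowest in 34 members. Without CC-4533 replicate 3 it was 14 lower and 4 higher, where Cre05.g236650 (log2 difference 1.59) and Cre07.g320750 (1.44) were the further members called higher. For Cre05.g236650, CC-1690 lay above only CC-124, CC-125 and CC-4533. With a pseudocount of 1 only 3 members were called in CC-1690, Cre02.g074800 and Cre14.g628850 lower and Cre13.g574400 higher. The shares beside all genes were not matched for level.

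The largest decrease in CC-1690 was that of Cre02.g074800. This gene was at 0.37, 0.61, 0.45 and 0.31 FPKM in CC-1690. It was at 4.66, 1.92, 1.44 and 3.18 FPKM in CC-1691, at 3.44, 4.31, 4.76 and 4.49 FPKM in CC-1009 and at 3.94, 3.74, 4.48 and 5.19 FPKM in CC-4532. It was highest in CC-124 (7.85, 12.55, 10.54 and 7.04 FPKM), CC-125 (11.65, 9.16, 10.87 and 11.29 FPKM) and CC-4533 (13.26, 12.44, 12.08 and 11.74 FPKM). The CC-1690 libraries lay below all others, and the lowest library of CC-124, CC-125 and CC-4533 lay above the highest of the remaining 4 strains. The log2 difference of CC-1690 from the other 6 was -3.59 (standard error 0.18, adjusted p = 7.25e-12). In CC-4533 the difference was 1.74 (standard error 0.18, adjusted p = 0.00381), the largest increase among the members in that strain. This latter call was lost in 3 of the 28 fits that left out a library and with a pseudocount of 1 (log2 difference 1.40).

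Cre14.g628850 was also lowest in CC-1690, at 0.06, 0.1, 0.02 and 0.12 FPKM. It was at 0.56, 0.48, 0.59 and 0.69 FPKM in CC-1009 and at 1.09, 0.69, 0.74 and 1.09 FPKM in CC-1691. In CC-4532 it reached 3.46, 3.67, 3.49 and 3.99 FPKM, and in CC-4533 3.34, 2.7, 5.65 and 2.94 FPKM. Thus 3 levels were seen, with CC-1690 below CC-1009 and CC-1691, and these below CC-124, CC-125, CC-4532 and CC-4533, with no overlap between the levels. CC-124 was at 2.59, 3.56, 3.53 and 2.92 FPKM and CC-125 at 3.17, 1.57, 2.16 and 2.13 FPKM. The log2 difference of CC-1690 from the other 6 was -3.56 (standard error 0.17, adjusted p = 1.81e-12).

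Cre10.g463750 was lowest in CC-1690, at 0.23, 0.22, 0.18 and 0.2 FPKM, and highest in CC-125, at 3.54, 2.79, 3.41 and 3.76 FPKM. In CC-124 it was at 0.91, 1.56, 1.25 and 1.17 FPKM, in CC-1009 at 1.04, 1.15, 0.97 and 1.3 FPKM, in CC-1691 at 1.45, 1.28, 1.18 and 1.07 FPKM, in CC-4532 at 1.64, 1.59, 1.72 and 1.73 FPKM and in CC-4533 at 0.84, 1.21, 1.96 and 0.85 FPKM. Both extremes lay outside the range of all other libraries. Its log2 difference was -2.37 (standard error 0.14, adjusted p = 1.35e-08) in CC-1690 and 1.70 (standard error 0.14, adjusted p = 0.000445) in CC-125. With a pseudocount of 1 these were -1.07 and 1.09 and neither was called. The remaining members lower in CC-1690 were Cre01.g018550, Cre02.g100450, Cre02.g115450, Cre06.g290200, Cre07.g348650, Cre10.g431250, Cre13.g603350 and Cre13.g607100, with log2 differences between -1.95 and -1.44.

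The members higher in CC-1690 were Cre13.g574400 and Cre05.g237800. For Cre05.g237800 the CC-1690 mean, 5.94 FPKM, lay below those of CC-1009, CC-4532 and CC-1691 and above only CC-124, CC-125 and CC-4533. Its call was lost in a fit without CC-125 and CC-4533 (log2 difference 0.35) and with a pseudocount of 1 (0.90). Cre13.g574400 was at 9.53, 6.98, 9.46 and 8.18 FPKM in CC-1690, above every other library, and at 4.2, 3.97, 4.66 and 3.91 FPKM in CC-4533, the next strain. It was lowest in CC-125, at 0.41, 0.52, 0.49 and 0.6 FPKM, and in CC-4532, at 1.15, 1.04, 0.87 and 0.7 FPKM. CC-124, CC-1009 and CC-1691 lay together at means of 2.30, 2.42 and 2.48 FPKM. CC-125 and CC-1690 are the mt+ strains, and this gene set them at opposite ends. The log2 difference from the other 6 strains was 2.21 (standard error 0.12, adjusted p = 1.14e-08) in CC-1690 and -2.26 (standard error 0.12, adjusted p = 7.31e-09) in CC-125.

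**Figure D3:**
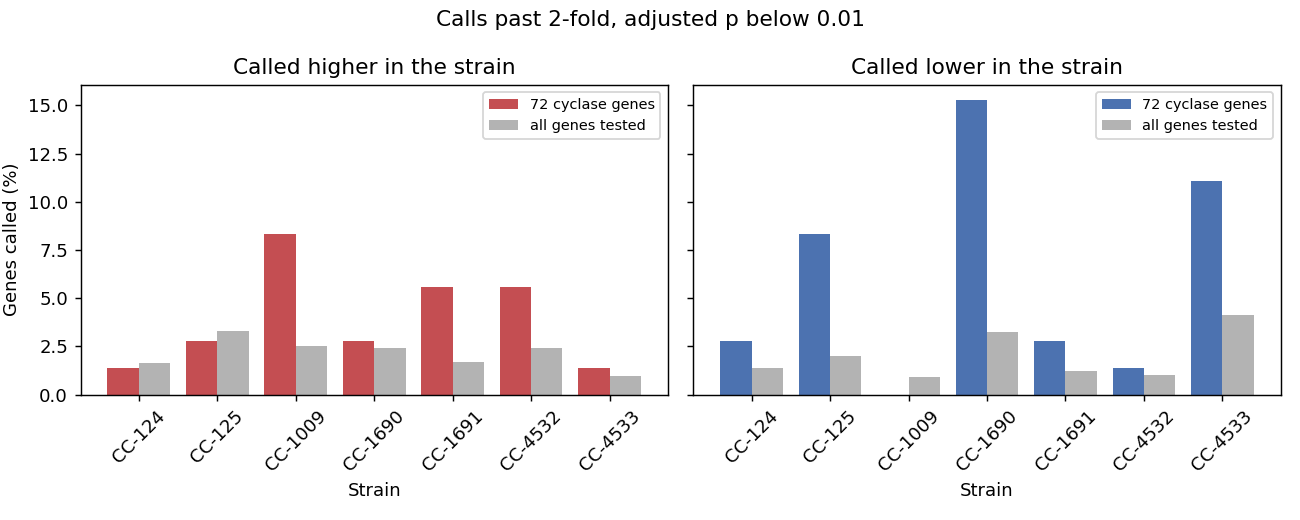
Percentage of the 72 cyclase genes (colored bars) and of all 14785 genes tested (gray bars) that limma's treat test called higher (left) or lower (right) in a strain than in the mean of the other 6. In CC-1690, 15.3% of the cyclase genes were called lower against 3.27% of all genes, and in CC-1009 8.33% were called higher against 2.52%.

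CC-1009 and CC-1691 were most often the strains with the highest level. CC-1009 had the highest strain mean in 23 of the 72 members (31.9%, against 10.7% of all genes) and the lowest in 0 (against 11.9%), and CC-1691 had the highest in 17 (23.6%, against 8.81%). The median log2 difference of the members was 0.43 in both strains and 0.28 in CC-4532. In CC-1009, 6 members were called higher (8.33%, against 2.52% of all genes) and 0 lower (against 0.933%). In CC-1691, 4 were higher (5.56%, against 1.69%) and 2 lower (2.78%, against 1.22%). In CC-4532, 4 were higher (5.56%, against 2.39%) and 1 lower (1.39%, against 1.01%). Without CC-4533 replicate 3 the counts were 7 higher and 0 lower in CC-1009, 6 and 2 in CC-1691, and 9 and 1 in CC-4532. The counts of these strains share members and are not separate results. Cre04.g223350, Cre05.g236650 and Cre05.g237800, which were low in CC-124, CC-125 and CC-4533, were called higher in CC-1009 and in CC-1691. Between CC-1009 and CC-1691, 2 members were called (2.78%, against 1.81% of all genes).

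A member that separated CC-1009 from CC-1691 was Cre16.g649050, among the most highly expressed cyclase genes. It was at 18.39, 20.74, 19.9 and 20.85 FPKM in CC-1009 and at 15.78, 17.91, 17.25 and 18.29 FPKM in CC-4532. In CC-1691 it was at 2.84, 2.44, 2.71 and 2.81 FPKM, below every other library. CC-124 was next, at 4.2, 4.47, 4.82 and 3.79 FPKM. The strains CC-125 (9.12, 6.77, 7.17 and 7.3 FPKM) and CC-1690 (7.96, 6.86, 6.17 and 7.22 FPKM) overlapped. CC-4533 (5.83, 5.52, 10.65 and 4.98 FPKM) spanned their range only through replicate 3, which lay above both strains. Its other libraries lay below both. The log2 difference from the other 6 strains was 1.62 (standard error 0.12, adjusted p = 0.000292) in CC-1009 and -1.69 (standard error 0.12, adjusted p = 8.12e-05) in CC-1691, the largest decrease among the members there.

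In CC-4532 the largest decrease was that of Cre09.g387350. It was at 0.27, 0.33, 0.37 and 0.37 FPKM in CC-4532 and at 0.6, 0.48, 0.56 and 0.6 FPKM in CC-125. It was highest in CC-124, at 2.15, 2.35, 2.49 and 2.3 FPKM, and in CC-1009, at 1.98, 2.52, 2.29 and 2.45 FPKM, with the means of CC-1691, CC-1690 and CC-4533 between 1.22 and 1.70 FPKM. The CC-4532 libraries lay below all others, with a log2 difference of -1.82 (standard error 0.09, adjusted p = 5.13e-08). With a pseudocount of 1 it was -0.90 and was not called.

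A pair of genes on chromosome 5 separated the strains most widely among members with a highest strain mean above 5 FPKM. Cre05.g236650 was at 8.94, 9.73, 10.13 and 9.89 FPKM in CC-1009, at 8.43, 7.05, 7.12 and 8.08 FPKM in CC-1691, at 6.47, 7.63, 8.11 and 7.54 FPKM in CC-4532 and at 4.17, 3.41, 3.78 and 4.08 FPKM in CC-1690. In contrast, it was at 0.09, 0.16, 0.28 and 0.22 FPKM in CC-124, at 0.25, 0.07, 0.06 and 0.11 FPKM in CC-125 and at 0.02, 0.05, 0.61 and 0.09 FPKM in CC-4533. The 16 libraries of the first 4 strains started at 3.41 FPKM and the 12 of the other 3 ended at 0.61 FPKM, in CC-4533 replicate 3. The highest strain mean, in CC-1009, was 79.0 times the lowest, in CC-125.

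Cre05.g237800 showed the same split. It was at 10.5, 11.81, 9.69 and 11.65 FPKM in CC-1009, at 9.88, 11.02, 11.01 and 7.94 FPKM in CC-4532, at 8.35, 7.84, 8.33 and 7.43 FPKM in CC-1691 and at 6.44, 5.15, 6.48 and 5.69 FPKM in CC-1690. In CC-124 it was at 0.49, 0.38, 0.52 and 0.47 FPKM, in CC-125 at 0.12, 0.17, 0.28 and 0.34 FPKM and in CC-4533 at 0.31, 0.23, 0.2 and 0.28 FPKM. The 12 libraries of these 3 strains again lay below the other 16, by 48.0-fold between the extreme strain means. Between these members lie 24 genes of the deposited table. Since the fit compares each strain with the mean of the other 6, both genes were called in several strains at once. Cre05.g236650 had the largest increase among the members in CC-1009 (log2 difference 3.02 (standard error 0.26, adjusted p = 8.92e-07)) and in CC-1691 (2.63 (standard error 0.26, adjusted p = 3.13e-05)). It had the largest decrease in CC-124 (-2.96 (standard error 0.26, adjusted p = 1.59e-06)), CC-125 (-3.43 (standard error 0.26, adjusted p = 2.74e-08)) and CC-4533 (-3.35 (standard error 0.26, adjusted p = 4.62e-08)). Within the set of 20 libraries that leaves out CC-125 and CC-4533, CC-124 lay below the other 4 strains. The log2 differences were -4.63 in Cre05.g236650 and -3.92 in Cre05.g237800, larger than in the full fit, as the low values of CC-125 and CC-4533 no longer entered the mean. As the genes were named from these values, these differences are descriptions. In this set the calls in CC-1691 and CC-4532 for both genes, and in CC-1690 for Cre05.g237800, were lost. The last of these was also lost with a pseudocount of 1 (log2 difference 0.90).

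The same order of strains, with CC-124, CC-125 and CC-4533 as the 3 lowest, was seen in 9 of the 72 members (12.5%, against 6.85% of all genes), and in 5 of them the 12 libraries lay below the other 16 with no overlap (6.94%, against 1.87%). This order was noticed in the values and is given as a description. Beside the chromosome 5 genes, the members without overlap were Cre04.g223350 (1.04 to 3.34 FPKM against 7.44 to 16.4 FPKM), Cre02.g091950 (1.48 to 2.80 FPKM against 4.75 to 10.3 FPKM) and Cre09.g388650 (0.73 to 2.02 FPKM against 2.58 to 5.30 FPKM). Cre12.g489900, Cre01.g021700, Cre02.g146450 and CYG56 had the order with some overlap. For Cre12.g489900 the overlap came from CC-4533 replicate 3, at 4.14 FPKM beside 0.76, 0.98 and 0.88 FPKM in the other CC-4533 libraries. Without that library 7 members had no overlap. The 3 strains include both strains of the smaller library set and 1 strain of the larger set.

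Calls in CC-125 and CC-4533 were mostly decreases, and in CC-4533 so were the calls over all genes. The chromosome 5 genes, Cre02.g091950 and Cre04.g223350, all members with the order above, were among those lower in CC-125 and in CC-4533. In CC-125, 6 members were lower (8.33%, against 1.98% of all genes) and 2 were higher (2.78%, against 3.29%). In CC-4533, 8 were lower (11.1%, against 4.11%) and 1 was higher (1.39%, against 0.967%). In CC-124, 2 were lower (2.78%, against 1.37%), the chromosome 5 genes, and 1 was higher (1.39%, against 1.66%). This split became 3 and 0 with quantile normalization. Without CC-4533 replicate 3 the counts were 9 lower and 1 higher in CC-4533, and 3 and 1 in CC-124. The pair with the fewest called members was CC-124 and CC-4533, with 1 (1.39%, against 3.71% of all genes), Cre06.g260550. The pairs with the most called members were CC-125 and CC-1690 (17, 23.6%, against 9.84%) and CC-1690 and CC-4533 (17, 23.6%, against 7.87%).

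The member higher in CC-124 was Cre06.g260550. It was at 1.87, 2.4, 1.99 and 1.59 FPKM in CC-124, above every other library, at 1.35, 1.16, 1.41 and 1.58 FPKM in CC-4532 and at 1.16, 1.26, 1.19 and 1.32 FPKM in CC-1009. The means of CC-125, CC-1690, CC-1691 and CC-4533 were between 0.255 and 0.445 FPKM. The log2 difference of CC-124 was 1.70 (standard error 0.16, adjusted p = 0.00298), and it was no longer called with quantile normalization (adjusted p = 0.014), in library set 1 alone (adjusted p = 0.156), with a pseudocount of 1 (log2 difference 0.88) or in 3 of the 28 fits that left out a library.

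The genes named for nitric oxide behaved differently from each other. CYG56, the NO-dependent guanylate cyclase on chromosome 16, had a narrow range. It was at 2.14, 2.35, 2.79 and 3.05 FPKM in CC-1691, its highest strain, and at 2.09, 2.11, 1.86 and 2.22 FPKM in CC-4532. It was at 1.08, 1.32, 1.47 and 1.5 FPKM in CC-124, at 1.23, 1.43, 1.22 and 1.2 FPKM in CC-125 and at 0.92, 0.98, 1.79 and 0.94 FPKM in CC-4533, its lowest. CC-1009 (1.35, 1.39, 1.46 and 1.32 FPKM) and CC-1690 (1.95, 1.7, 1.7 and 1.7 FPKM) lay between. The ratio of the extreme means was 2.23 and 0 of 21 pairs were called. Cre07.g321150 (means from 0.922 to 2.18 FPKM) and Cre13.g564800 (means from 2.05 to 4.92 FPKM) were likewise called in 0 pairs.

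In contrast, the neighbours Cre07.g320700 and Cre07.g320750 on chromosome 7, adjacent in the deposited table, were both strain-restricted. Cre07.g320750 was at 7.54, 8.07, 6.91 and 6.32 FPKM in CC-4532, above every other library. It was at 2.97, 2.47, 2.56 and 2.55 FPKM in CC-1690, at 2.82, 1.69, 2.24 and 1.79 FPKM in CC-125 and at 0.85, 1, 1.22 and 0.99 FPKM in CC-1009. It was low in CC-124 (0.44, 0.63, 0.44 and 0.42 FPKM), CC-1691 (0.34, 0.44, 0.27 and 0.35 FPKM) and CC-4533 (0.13, 0.13, 0.46 and 0.13 FPKM). The log2 difference from the other 6 strains was 3.04 (standard error 0.17, adjusted p = 2.51e-10) in CC-4532 and -2.41 (standard error 0.17, adjusted p = 1.71e-07) in CC-4533. That in CC-1691 was -1.66 (standard error 0.17, adjusted p = 0.00775), a call that was lost in 13 of the 28 fits that left out a library and with no filter on low values (adjusted p = 0.012). With a pseudocount of 1 neither CC-4533 (-1.15) nor CC-1691 (-0.96) was called.

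Cre07.g320700, its neighbour, was highest in CC-125, at 3, 2.01, 2.54 and 2.33 FPKM, followed by CC-4532, at 0.98, 1.25, 1.53 and 1.18 FPKM. It was at 0.72, 0.89, 0.46 and 0.41 FPKM in CC-124, at 0.66, 0.66, 0.59 and 0.61 FPKM in CC-1009 and at 0.5, 0.28, 0.34 and 0.52 FPKM in CC-1690. It was lowest in CC-1691 (0.21, 0.14, 0.25 and 0.27 FPKM), with CC-4533 at 0.19, 0.35, 0.82 and 0.36 FPKM. The CC-125 libraries lay above all others, with a log2 difference of 2.06 (standard error 0.20, adjusted p = 0.000178). With a pseudocount of 1 it was 1.15 and was not called. The neighbours therefore shared low levels in CC-1691 and CC-4533 but differed in their highest strain and in CC-1690, where Cre07.g320750 was at a mean of 2.64 FPKM and Cre07.g320700 at 0.41 FPKM.

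**Figure D4:**
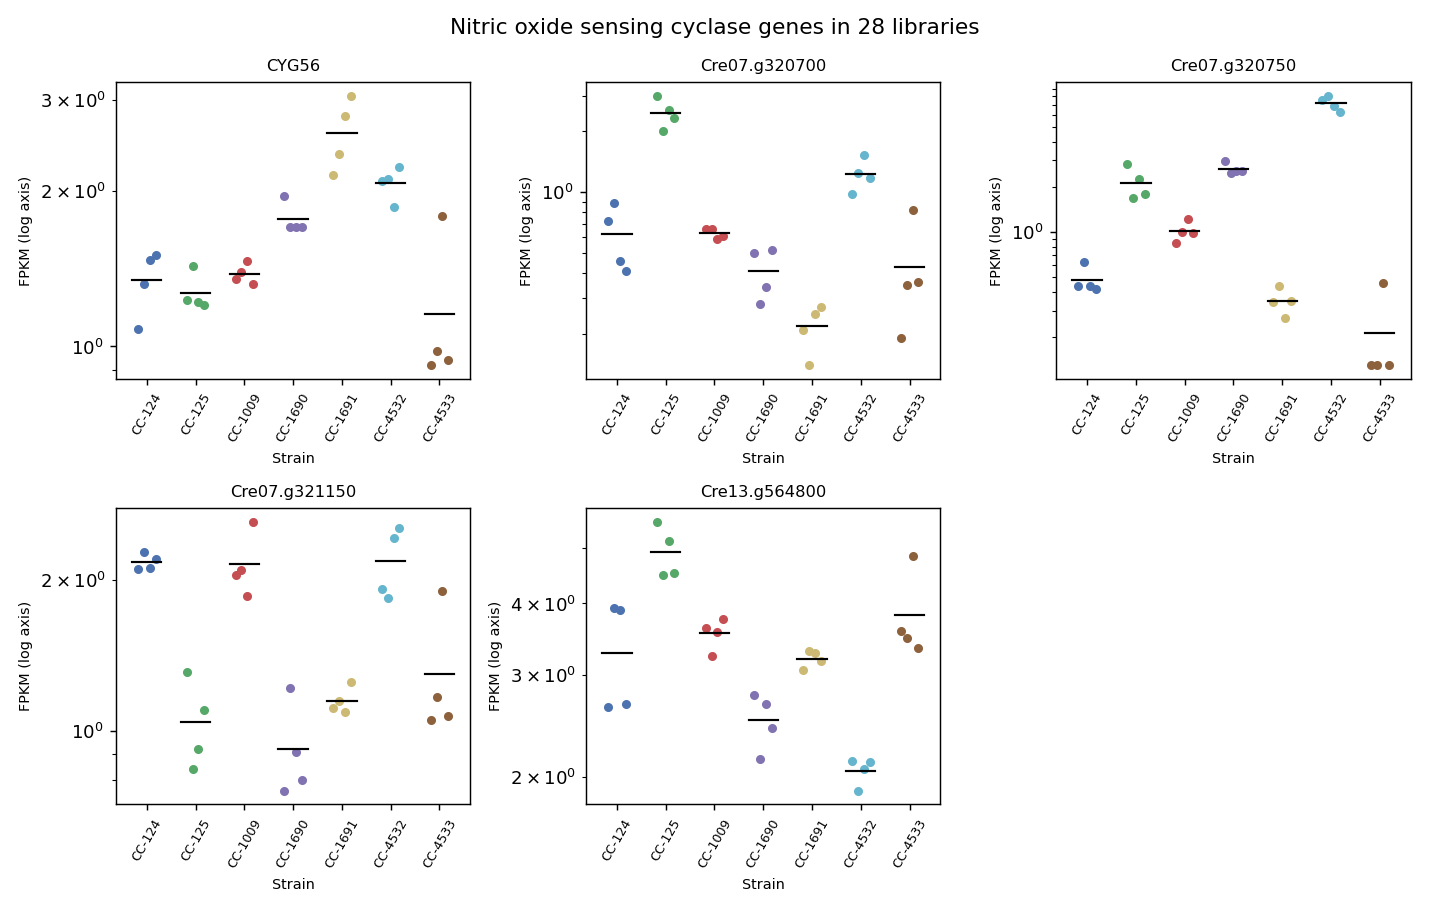
FPKM (log axis, a separate range for each gene) of the 5 cyclase genes whose definition names nitric oxide, in each of 4 libraries (points) per strain with the mean (bar). CYG56 stays between 0.92 and 3.05 FPKM, whereas Cre07.g320750 runs from 0.13 FPKM in CC-4533 to 8.07 FPKM in CC-4532.

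Strain-restricted members were defined by a highest strain mean above 1 FPKM, a lowest below 0.5 FPKM and at least 10-fold between them. There were 9 among the 72 (12.5%, against 6.03% of all genes). These shares were not matched for level, and genes at a low level fall below 0.5 FPKM more easily. The median highest strain mean was 3.70 FPKM over the members and 7.15 FPKM over all genes tested. Beside the members already described (Cre02.g074800, Cre05.g236650, Cre05.g237800, Cre07.g320700, Cre07.g320750, Cre10.g463750 and Cre14.g628850) they were Cre13.g591600 and Cre13.g603350, both highest in CC-4532. Since the definition used these values, the contrasts of the 9 genes are descriptions. Reads of all strains were mapped to the CC-4532 genome, although the strains differ in haplotype. Whether this lowered values in the other strains was not tested.

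Cre13.g603350 had the largest ratio of all, 114, but at a low level. It was at 1.21, 1.1, 1.74 and 1.64 FPKM in CC-4532. It was at 0.54, 0.71, 0.79 and 0.72 FPKM in CC-124, at 0.44, 0.7, 0.56 and 0.59 FPKM in CC-1009 and at 0.6, 0.33, 0.64 and 0.9 FPKM in CC-1691. In CC-125 (0.17, 0.02, 0.01 and 0.03 FPKM), CC-1690 (0.05, 0.08, 0.01 and 0.01 FPKM) and CC-4533 (0.01, 0.01, 0.02 and 0.01 FPKM) it was at or near the smallest value that the rounding to 2 decimals allows, so the size of the ratio has unknown precision. The 12 libraries of these 3 strains lay below the other 16. The log2 difference was 2.30 (standard error 0.20, adjusted p = 1.97e-05) in CC-4532 and -2.06 (standard error 0.20, adjusted p = 0.000225) in CC-4533. The call in CC-1690, -1.76 (standard error 0.20, adjusted p = 0.00745), was lost in 12 of the 28 fits that left out a library and with quantile normalization (adjusted p = 0.549), where that in CC-4533 was also lost (adjusted p = 0.0509). The call in CC-4532 was lost in library set 1 alone (log2 difference 1.68, adjusted p = 0.0263), and with a pseudocount of 1 the gene was called in none of these strains (log2 differences between -0.56 and 0.89).

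Cre13.g591600 was at 2.51, 2.58, 3.09 and 3.17 FPKM in CC-4532, above every other library, and at 0.31, 0.2, 0.27 and 0.25 FPKM in CC-1690. Its replicates were uneven in CC-125 (1.44, 0.19, 0.35 and 0.42 FPKM) and in CC-4533 (0.1, 0.19, 1.85 and 0.17 FPKM). The other strains were steadier, with CC-124 at 0.51, 0.81, 0.79 and 0.57 FPKM, CC-1009 at 1.02, 1.4, 0.94 and 1.08 FPKM and CC-1691 at 1.25, 1.17, 1.2 and 1.18 FPKM. The log2 difference of CC-4532 was 2.10 (standard error 0.35, adjusted p = 0.0535), which did not pass the threshold. Without CC-4533 replicate 3 it was 2.22 and was called.

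**Figure D5:**
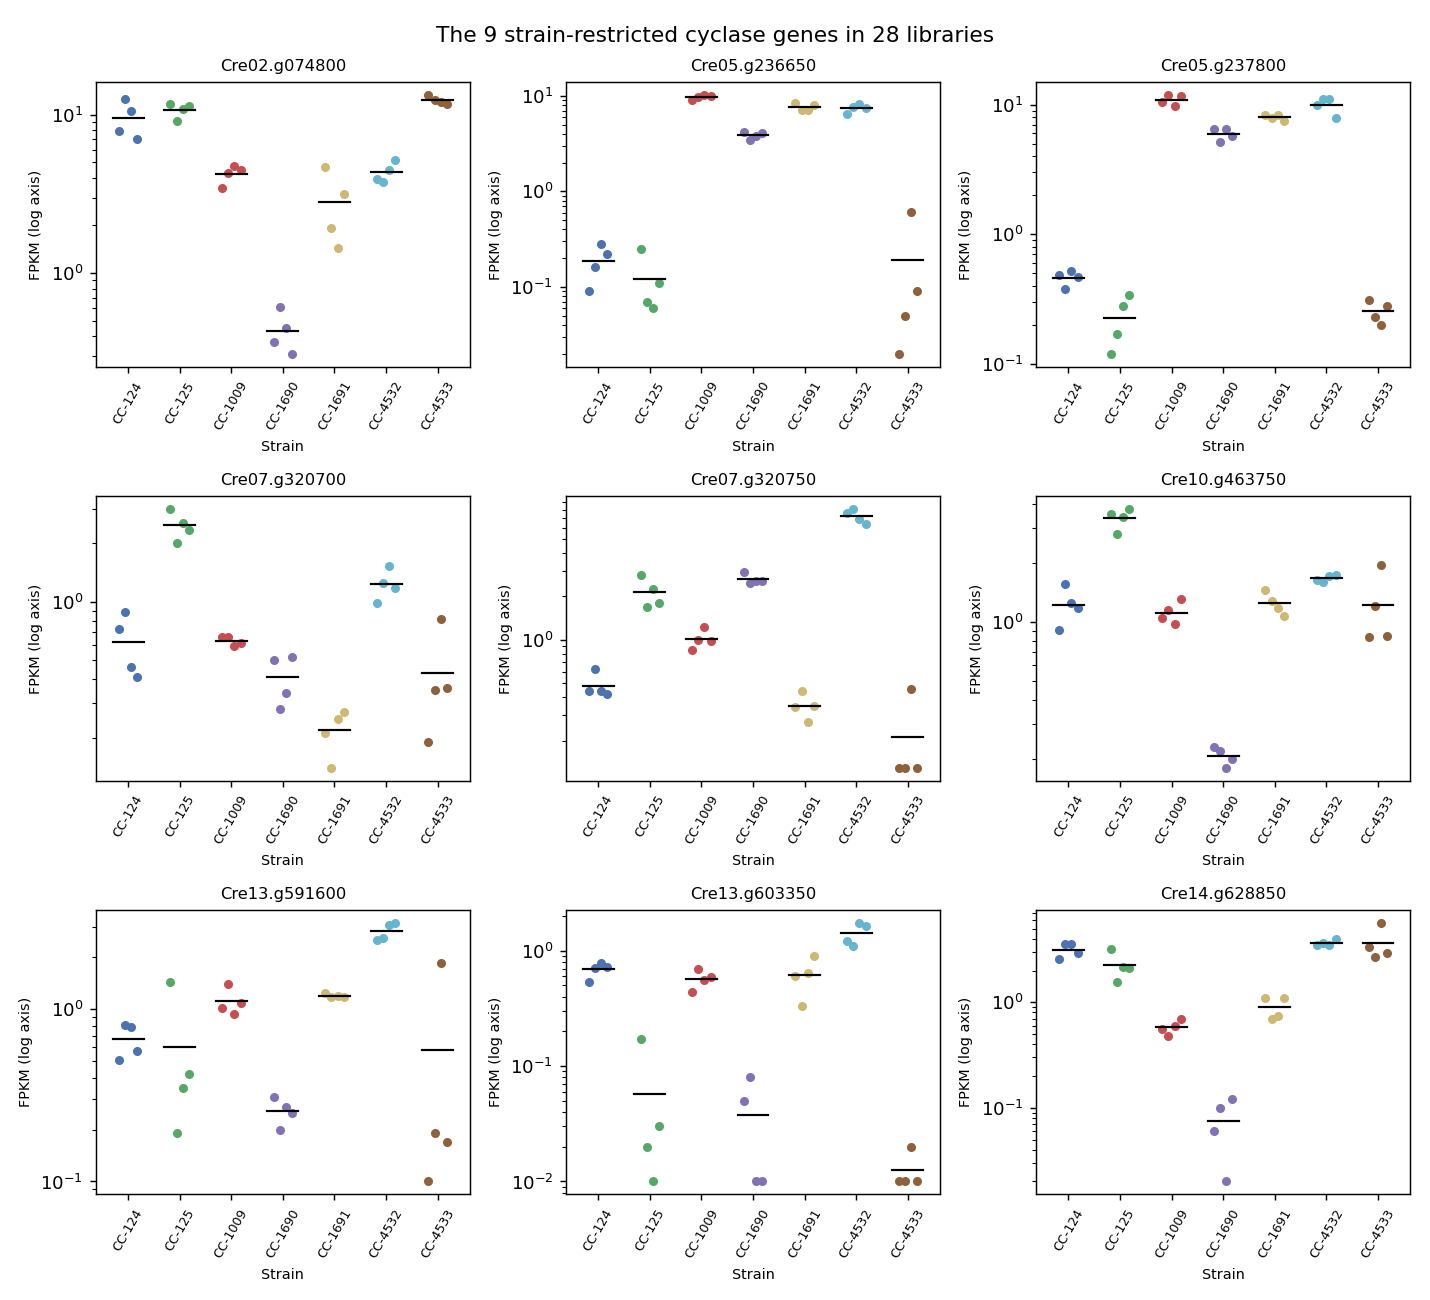
FPKM (log axis, a separate range for each gene) of the 9 strain-restricted cyclase genes in each of 4 libraries (points) per strain, with the mean of the strain (bar). The chromosome 5 genes Cre05.g236650 and Cre05.g237800 are both below 1 FPKM in CC-124, CC-125 and CC-4533 and above 3 FPKM in the other strains, whereas Cre02.g074800 and Cre14.g628850 are lowest in CC-1690.

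The members lie on 14 chromosomes, with 10 on chromosome 2 and 9 on chromosome 14. As listed in the deposited file order, 7 pairs of members, made up of 13 members, follow each other directly, and 5 of these pairs are also direct neighbours in the RefSeq annotation of the older v5.5 assembly. Beside the chromosome 7 pair described above, levels were compared in 2 of these runs. Cre02.g074758, next to Cre02.g074800, was at means of 1.03 to 2.67 FPKM, with 1.03 ± 0.184 FPKM (SD, n = 4) in CC-1690, where Cre02.g074800 was at 0.435 ± 0.130 FPKM. In the run of Cre13.g607100, Cre13.g607150 and Cre13.g607200, the mean over the strains was 7.49, 1.39 and 4.03 FPKM, and CC-1690 was the lowest strain for the first and second of these and CC-4533 for the third. In the authors' mapping a read that fits several places was kept at 1 of them chosen at random, so levels of members with near-identical stretches would be uncertain. Which members share such stretches was not tested.

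Few members followed mating type. In 2 of the 72 (2.78%, against 1.11% of all genes) the 8 libraries of the mt+ strains CC-125 and CC-1690 lay outside the range of the 20 mt− libraries, and both were lower in mt+. These were Cre03.g199250 (0.44 to 0.94 FPKM in mt+ and 1.01 to 2.72 FPKM in mt−) and Cre16.g688638 (0.78 to 1.35 FPKM in mt+ and 1.66 to 8.70 FPKM in mt−). For Cre16.g688638 the mt− strains differed widely among themselves, from 1.91 ± 0.281 FPKM in CC-4532 to 8.4 ± 0.365 FPKM in CC-1691 (SD, n = 4). With 2 strains against 5, mating type cannot be told apart from the strains that carry it.

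The other genes of cyclic nucleotide metabolism and response were taken by symbol or definition: 28 phosphodiesterases, 2 genes defined as nucleotidyl cyclases, the cyclic-nucleotide gated channels CNG1, CNG2 and CNG3, the cGMP-dependent protein kinase CGK1, and FAP323 and ESU1. All 36 were tested. Of these, 11 (30.6%, where 30.2% of all genes were) were called in a pair of strains and 5 (13.9%, where 15.1% were) in a strain, so this list moved about as often as genes in general. The median ratio of highest to lowest strain mean was 2.53. The highest levels among the phosphodiesterases, which break down cAMP and cGMP, were those of Cre13.g603000, with a mean over the strains of 97.8 FPKM, and Cre07.g342350, with 46.0 FPKM, above that of any cyclase gene, the highest of which had 15.7 FPKM.

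In CC-1690, 3 of the 36 were lower (8.33%, against 3.27% of all genes) and 1 was higher (2.78%, against 2.41%). The phosphodiesterase Cre02.g109100 was at 1.18, 1.05, 0.92 and 0.99 FPKM in CC-1690, below all other libraries, and at 12.89, 9.29, 10.39 and 11.38 FPKM in CC-125, the highest strain, with a log2 difference of -2.51 (standard error 0.12, adjusted p = 1.34e-10). The phosphodiesterase Cre14.g617650 (0.472 ± 0.165 FPKM) and the nucleotidyl cyclase Cre01.g019300 (0.482 ± 0.0741 FPKM) were also lower in CC-1690, and the phosphodiesterase Cre11.g467673 (4.04 ± 0.55 FPKM) was higher (SD, n = 4). In CC-1691 1 of the 36 (2.78%, against 1.22% of all genes), the phosphodiesterase Cre09.g389875, was lower, at 0.5, 0.58, 0.52 and 0.31 FPKM. CC-1690 had the lowest strain mean in 20 of the 36 genes (55.6%), beside 51.4% of the cyclase genes. The channels CNG1, CNG2 and CNG3, the kinase CGK1, FAP323 and ESU1 were called in 0 pairs.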

How the data were processed

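Poly-adenylated RNA of 28 cultures was sequenced. The authors aligned single-end reads by STAR to version v6.1 of the CC-4532 genome, keeping 1 location per read, counted them per gene and strand with featureCounts, multimapping reads as fractions, and deposited FPKM values calculated with DESeq2 and rounded to 2 decimals. Depth per library is unknown. Versions are not given in the sources used here. A second deposited table of strain means was not used, and 0 columns belong to other samples. For 1 gene whose definition spilled into further columns, the last 28 fields were read. Strain, replicate and mating type came from the labels. Library set was read from a number in the library names, whose meaning the labels do not state. The 4 cultures of a strain were treated as independent, although inoculation was done in 1 batch for CC-125 and CC-4533 and in 2 for each other strain, with no record of which replicates belong to which.

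Genes whose highest strain mean exceeded 1 FPKM (14785 of 17611) were fitted with limma 3.58.1 (R 4.3.3) on log2(FPKM + 0.1), with a variance trend, over all 28 libraries. The F test over strains, and treat tests against 2-fold for each strain against the mean of the other 6 and for 21 pairs, were called at a Benjamini-Hochberg adjusted p below 0.01 over all genes tested (in pairs, only where either strain exceeded that level). The fit was tested on simulated data. Figures were drawn with Python 3.11.15, pandas 2.3.3 and matplotlib 3.10.9. The members, lists and descriptions were chosen with earlier results of these data known.

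Genes are named if they have a symbol, are strain-restricted, have the largest called increase or decrease in a strain, have the 5 highest means, are the 3 most even above 2 FPKM, or lie nearest to 1 FPKM. Other members named, those called in CC-1690, those lowest in CC-124, CC-125 and CC-4533, those ordered by mating type, neighbours, the nitric oxide genes and the pathway genes, were chosen after their values were seen. All 79 members matched a locus tag of RefSeq v5.5, which gave 0 further symbols. Sequences were not analysed here. Alternatives were pseudocounts of 1 and 0.01, median-ratio and quantile scaling, a replicate block, no filter and a filter at 5 FPKM, a test against no change, an adjusted p of 0.05, each pair on its own libraries, library set 1 alone, and each library left out.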

Additional observations from a re-analysis of the deposited data

Results flagged for a closer look

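Among 154 groups of 4 replicates (22 named members in 7 strains), 16 held a library set apart from the other 3 by Dixon's criterion. For independent, normally distributed values, chance alone gives this in about 1 in 20 groups. These values are rounded to 2 decimals, some are near 0, and the groups share libraries, so the 16 cannot be set against that rate. CC-4533 replicate 3 was that library in 9 of them. It was the highest at 1.79 FPKM for CYG56 (0.92 to 0.98 FPKM in the other 3), 0.61 FPKM for Cre05.g236650 (0.02 to 0.09), 0.46 FPKM for Cre07.g320750 (0.13 in each), 1.85 FPKM for Cre13.g591600 (0.1 to 0.19), 0.02 FPKM for Cre13.g603350 (0.01 in each), 10.65 FPKM for Cre16.g649050 (4.98 to 5.83), 24.32 FPKM for Cre01.g030500 (15.52 to 16.59), 10.46 FPKM for Cre11.g479000 (5.74 to 6.04) and 4.98 FPKM for Cre14.g612950 (3.52 to 3.55). In CC-125, replicate 2 was the highest for CYG56 at 1.43 FPKM, replicate 1 for Cre13.g603350 at 0.17 FPKM and for Cre14.g616550 at 4.66 FPKM, and replicate 4 for Cre16.g678551 at 0.3 FPKM. In CC-1690, replicate 1 was the highest for CYG56 at 1.95 FPKM and the lowest for Cre16.g678551 at 0.12 FPKM, and in CC-124 replicate 2 was the highest for Cre07.g320750 at 0.63 FPKM.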

How the results depend on the processing

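Of 378 counts of members called under the alternatives, 355 stayed within 1.5 times the main count, and of 1159 named log2 differences 1101 kept their direction and call and 58 were no longer called. None was reversed. With a pseudocount of 1 the members called were 4 in CC-125 (8 in the main fit), 3 in CC-1690 (13), 3 in CC-4532 (5), 3 in CC-4533 (9), 9 in at least one strain (24) and 21 (42) in at least one pair. Then 12 of the 31 named calls were lost, of members with low levels in part of the strains. With a filter at 5 FPKM, which tests fewer members, the F test called 25, and 6 were called in CC-1690, 3 in CC-4532, 13 in at least one strain and 19 in at least one pair. A test against no change with a 2-fold limit called 11 members in CC-124 (3 in the main fit), 19 in CC-125, 15 in CC-1009 (6), 28 in CC-1690, 12 in CC-1691 (6), 13 in CC-4532, 16 in CC-4533 and 41 in at least one strain. At an adjusted p of 0.05, CC-4532 had 9. In library set 1 alone, 9 were called in CC-124 and 3 in CC-1691, where CC-125 and CC-4533 no longer enter the mean. Leaving out each library in turn gave 5 to 10 members in CC-4532, with 10 without CC-4533 replicate 3, 10 to 18 in CC-1690, 6 to 10 in CC-4533, 8 to 9 in CC-125, 4 to 8 in CC-1691, 5 to 7 in CC-1009, 2 to 4 in CC-124, 21 to 29 in at least one strain and 38 to 43 in pairs. Replicate numbers did not pair the samples: libraries of different strains with the same number had mean correlations of their deviations between -0.03 and 0.02. With the replicate number as a block, 72 members were called by the F test, 24 in at least one strain and 42 in at least one pair, and Cre07.g320750 in CC-1691 (adjusted p = 0.0106) and Cre13.g603350 in CC-1690 (adjusted p = 0.0134) were no longer called. The counts under these alternatives have no share of all genes beside them, as such shares are given for the main fit only. In that fit 33.3% of the members against 15.1% of all genes were called in at least one strain. In at least one pair it was 58.3% against 30.2%. Whether this excess holds under the alternatives was not tested. Absolute depth is unknown, which limits what can be said of members below about 1 FPKM.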
